A study of Mus musculus with 9 samples.

Results

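Autophagy and lysosome genes were followed in whole newborn lenses of 3 mouse lines. The group holds 37 genes of the 47729 in the tables, picked by symbol for their known roles. The choice used no measured value as a criterion but was made with earlier results of these data known. They comprise 4 initiation genes, 7 genes of nucleation and membrane supply, 6 conjugation genes, 5 ATG8 genes, 5 receptor genes, 5 lysosomal genes, 2 genes of vesicle transport and tethering (*Fyco1* and *Epg5*) and 3 control genes (*Mtor*, *Rptor* and *Tfeb*). All 37 passed the filter on low counts and were tested. The lines were wild-type *FVB/N* mice and, on the same strain, mice hemizygous for the *P0-3.9GFPCre* or for the *Le-Cre* transgene. All lenses were taken from newborns, and the labels name no other allele. Both transgenes place CRE and GFP under fragments of the *Pax6* P0 promoter, which is active in the lens placode and its derivatives. The *FVB/N* lenses carried no transgene, so each comparison with *FVB/N* covers the insertion, CRE and GFP together. Each line was represented by 3 pools of 6 lenses from 3 mice, and the p-values therefore measure the spread between pools.

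Macroautophagy encloses cytoplasm and organelles in a double membrane, the autophagosome, which then fuses with a lysosome whose acid hydrolases digest the cargo. The ULK1 complex starts the process, the class III phosphatidylinositol 3-kinase complex marks the membrane, and a ubiquitin-like conjugation system attaches ATG8 proteins to it. Receptors tie cargo to the ATG8 proteins, and mTORC1 holds the ULK1 complex and the transcription factor TFEB in check when nutrients are plentiful. Lens fibre cells lose their nuclei, mitochondria and endoplasmic reticulum as they mature, and inherited mutations of *FYCO1* cause cataract in people, while those of *EPG5* cause a syndrome that includes it.

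Total expected counts, RSEM's estimates of the reads from each gene, ranged from 20670968 to 28098059 per pool. Crystallin genes took 39.1 to 43.0% of them. Lens fibre markers summed to 140000 to 166000 TPM (transcripts-per-million, scaled for gene length) and lens epithelium markers to 179 to 223 TPM in every line. The 9 macrophage markers, from a cell type rich in lysosomes, summed to only 1.02 to 2.45 TPM, and the cornea markers *Krt12* and *Krt14* were listed at 0 in all 9 pools. The 5 mesenchyme markers summed to 31.9 to 34.2 TPM in *FVB/N*, 27.2 to 31.5 TPM in *P0-3.9GFPCre* and 25.4 to 27.7 TPM in *Le-Cre* pools, ranges that did not overlap between either transgenic line and *FVB/N*. The summed level of 4 Y-linked genes also differed, at 126 to 194 CPM (reads as a share of the library size after TMM normalisation, on a counts-per-million scale with no correction for length) in *FVB/N*, 1.66 to 135 CPM in *P0-3.9GFPCre* and 0.633 to 71.9 CPM in *Le-Cre* pools. The Y-linked level depends on the share of male mice in a pool, and the labels used here give no sex. Its ranges did not overlap between *Le-Cre* and *FVB/N*, so line and sex mix cannot be fully told apart in that comparison. In whole lenses, fewer cells of a type and less RNA per cell cannot be told apart.

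TFEB and its relatives bind a palindromic E-box, CACGTG, that often stands near the start of lysosomal genes. RefSeq promoters (GRCm38.p6, 250 bases before to 50 after the start) were at hand for 29 of the 37 genes, and 7 of these genes (24.1%) held CACGTG. The motif reads the same on both strands. Of all 27025 genes with such a promoter, 8.09% held it. The longer CLEAR element was searched only as an exact match to a fixed palindrome that contains CACGTG. That match was in 0 of the 29 genes and in 0.37% of all genes. Sites that differ from it in any letter were not counted, so the search cannot tell whether inexact CLEAR elements were present. The 7 genes were *Lamp1*, *Atg3*, *Ctsd*, *Ctsl*, *Atg5*, *Atg7* and *Atg14*. Places relative to a gene follow the GENCODE M21 annotation, whose starts can differ from those of RefSeq. By it, the *Atg7* motif lay in an intron 27867 bases from the gene start, and the *Atg14* motif 2214 bases from it. A match is a description of letters and not of binding. Stretches of *Lamp1* and *Atg3* are shown because these genes hold the most copies upstream of the gene, and 1 of *Ctsd* because it was the most abundant gene, with CACGTG in capitals.
Lamp1, chr8:13159088-13159160, plus strand, directly upstream of the gene: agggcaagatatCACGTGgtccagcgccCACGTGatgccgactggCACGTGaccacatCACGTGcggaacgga
Atg3, chr16:45158723-45158775, plus strand, upstream of the gene: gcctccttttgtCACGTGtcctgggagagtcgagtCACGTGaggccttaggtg
Ctsd, chr7:142388055-142388077, minus strand, upstream of the gene: tccccCACGTGacctgtatccag
*Lamp1* thus carried 4 copies within 73 bases, and *Atg3* carried 2 within 53 bases. *Ctsd* held a second copy, in a UTR by GENCODE M21 but 98 bases before the RefSeq start.

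All 37 genes were expressed in the newborn lens. In *FVB/N* pools the 37 genes had a median level of 21.4 TPM, against 4.73 TPM for all tested genes, and 34 of the 37 lay above that general median. Lysosomal *Ctsd*, which encodes the aspartic protease cathepsin D, led at 287 ± 9.97 TPM (SD, n = 3). It was followed by *Gabarap* at 202 ± 14, *Nbr1* at 200 ± 23.5 and *Lamp1* at 111 ± 8.74 TPM. The pools of *Ctsd* lay above those of *Gabarap*, those of *Gabarap* and *Nbr1* overlapped, and *Lamp1* lay below both. The lowest levels belonged to *Atg14* at 2.87 ± 0.21, *Pik3r4* at 3.52 ± 0.475 and *Tfeb* at 3.82 ± 1.35 TPM, which encode a pair of VPS34 partners and the transcription factor TFEB. *Fyco1* and *Epg5* were modest, at 7.44 ± 2.03 and 5.19 ± 0.125 TPM.

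**Figure D1:**
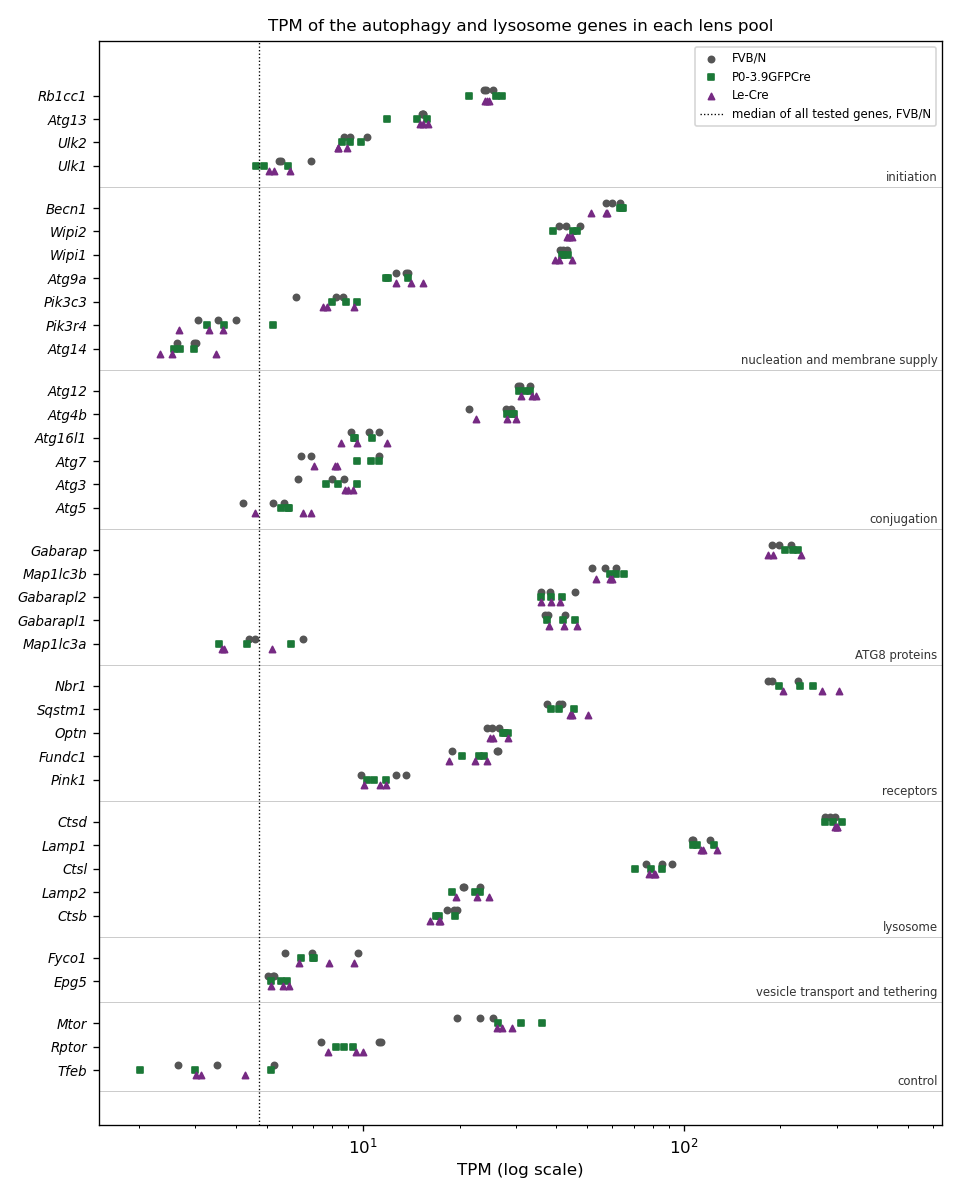
TPM of the 37 genes on a log axis, grouped by role, with a point for each of the 3 pools of *FVB/N* (grey circles), *P0-3.9GFPCre* (green squares) and *Le-Cre* (purple triangles). The dotted line is the *FVB/N* median of all tested genes, 4.73 TPM, and the 3 lines lie on top of each other for most genes while levels span from *Atg14* at 2.87 to *Ctsd* at 287 TPM.

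The question put to the 3 lines was whether the transgenes change gene expression in the hemizygous lens. Of the 37 genes, 0 passed the cutoff (1.5-fold with an adjusted p no higher than 0.05) in *Le-Cre* against *FVB/N*, where 0.0643% of all 15557 tested genes passed it. The counts were also 0 in *P0-3.9GFPCre* against *FVB/N* (0.0% of all genes) and 0 in *Le-Cre* against *P0-3.9GFPCre* (0.0% of all genes). DESeq2 and limma on log2(TPM + 1) called 0 of the 37 as well. At an unadjusted p under 0.05, edgeR's quasi-likelihood test picked 2 of the 37 in *Le-Cre* against *FVB/N* (7.94% of all genes), both lower (4.35% of all genes, beside 3.6% higher). It picked 1 in *P0-3.9GFPCre* against *FVB/N* (6.81%), which was lower (3.41%, beside 3.41% higher), and 1 in *Le-Cre* against *P0-3.9GFPCre* (7.88%), which was higher (3.63%, beside 4.25% lower). The smallest adjusted p of any of the genes was 0.575, 0.674 and 0.556 in the same order. The 2 comparisons with *FVB/N* share its pools and are not independent.

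The absence of a call came with narrow intervals. For 36 of the 37 genes, the 95% interval of the fold change lay inside 1.5-fold in either direction in all 3 comparisons. Over all tested genes, that held for 58.5%, 58.9% and 58.5% in *Le-Cre* against *FVB/N*, *P0-3.9GFPCre* against *FVB/N* and *Le-Cre* against *P0-3.9GFPCre*. Inside the narrower limit of 1.25-fold lay 27, 24 and 30 of the 37 genes. The exception at 1.5-fold was *Map1lc3a*, the gene with the fewest reads, at 61 to 129 expected counts per pool. The median log2 fold change (log2FC) of the 37 genes was 2.86e-05 in *Le-Cre* against *FVB/N*, -0.04 in *P0-3.9GFPCre* against *FVB/N* and 0.04 in *Le-Cre* against *P0-3.9GFPCre*, beside medians of -0.00404, 2.39e-05 and -0.00176 over all tested genes. The highest log2FC in *Le-Cre* against *FVB/N* was 0.21 for *Atg5* and the lowest was -0.27 for *Map1lc3a*.

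**Figure D2:**
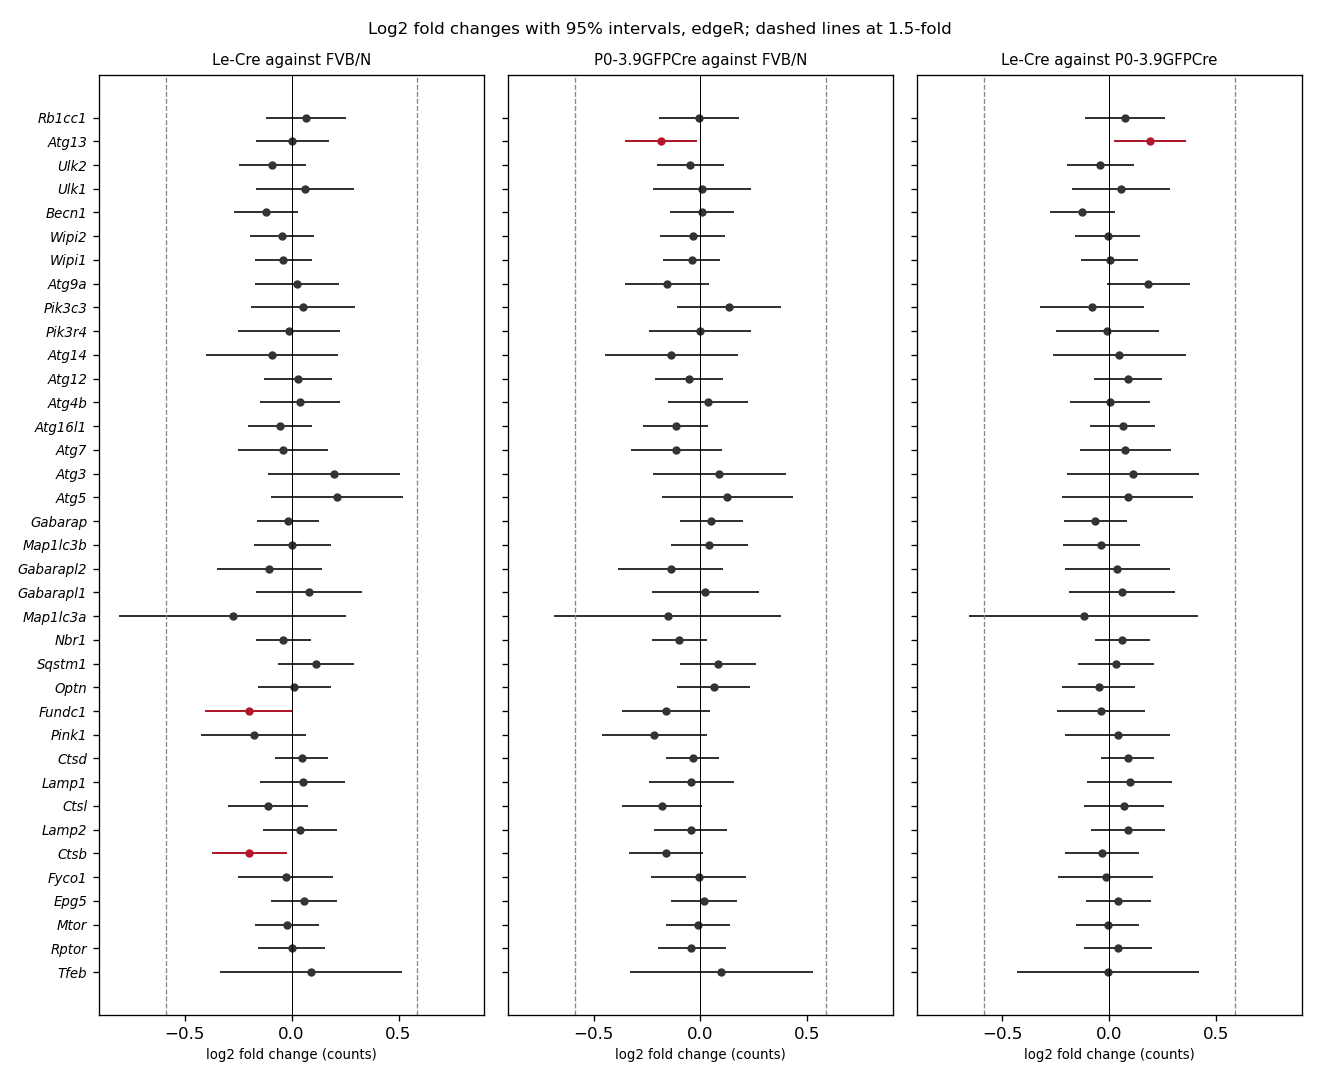
Log2FC from expected counts (points) with 95% intervals (lines) for the 37 genes in 3 comparisons, with dashed lines at 1.5-fold and red marking an unadjusted p under 0.05. All intervals but those of *Map1lc3a* stay between the dashed lines.

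Separation of the pools on the CPM scale was also counted gene by gene. In *Le-Cre* against *FVB/N*, the pools of 4 of the 37 genes did not overlap (13.5% of all genes, 6.46% higher and 7.03% lower), and *Becn1*, *Ctsb*, *Fundc1* and *Ulk2* were all lower in *Le-Cre*. In *P0-3.9GFPCre* against *FVB/N* there were 7 such genes (12.0% of all genes, 6.02% higher and 5.94% lower), with *Optn* higher and *Atg13*, *Atg16l1*, *Atg9a*, *Ctsb*, *Fundc1* and *Nbr1* lower. In *Le-Cre* against *P0-3.9GFPCre* there were 4 (14.1% of all genes, 6.74% higher and 7.37% lower), with *Atg12*, *Atg13* and *Atg9a* higher and *Becn1* lower.

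Among the initiation genes, *Atg13* was the only one with an unadjusted p under 0.05. ATG13 is the phosphorylated adaptor of the ULK1 complex, and its gene lies at 2:91674618-91710576 on the minus strand (GRCm38). Its level was 32.0, 32.9 and 36.0 CPM in *FVB/N*, 30.8, 29.5 and 28.4 CPM in *P0-3.9GFPCre* and 35.9, 32.6 and 32.6 CPM in *Le-Cre* pools. All *P0-3.9GFPCre* pools were below the pools of both other lines, and the *Le-Cre* and *FVB/N* pools overlapped. The log2FC was -0.18 ± 0.075 (SE) in *P0-3.9GFPCre* against *FVB/N* (edgeR, adjusted p = 0.674) and 0.19 ± 0.075 in *Le-Cre* against *P0-3.9GFPCre* (adjusted p = 0.556). Leaving out *FVB/N* replicate 3 or *P0-3.9GFPCre* replicate 2 or 3 in turn took the first to an unadjusted p above 0.05, and the log2FC ranged from -0.22 to -0.13 over the 9 such fits. It was also above 0.05 in both DESeq2 fits and with the Y-linked level as a covariate (edgeR, unadjusted p = 0.0622), and so under 0.05 in 12 of 18 alternatives. The second lost its unadjusted p under 0.05 without *P0-3.9GFPCre* replicate 2 or 3 or *Le-Cre* replicate 1. *Rb1cc1*, which encodes the scaffold FIP200, had the highest TPM of the initiation genes. It measured 77.7, 65.7 and 79.4 CPM in *FVB/N*, 73.2, 77.1 and 71.7 CPM in *P0-3.9GFPCre* and 72.1, 80.4 and 81.1 CPM in *Le-Cre*, with overlapping groups. The kinase genes *Ulk1* and *Ulk2* shared their TPM at means of 37.8% and 62.2% over the 9 pools. *Ulk2* stood at 35.6, 36.0 and 36.0 CPM in *FVB/N*, 33.6, 37.6 and 32.8 CPM in *P0-3.9GFPCre* and 33.3, 34.3 and 33.3 CPM in *Le-Cre*. The *Le-Cre* pools were thus below *FVB/N*, by a log2FC of -0.09 ± 0.069 with an interval of -0.24 to 0.06.

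For nucleation, *Becn1*, encoding the core subunit Beclin 1 of the phosphatidylinositol 3-kinase complex, had the highest TPM, while *Wipi1* and *Wipi2* had more reads and stood higher per kilobase of their longest transcript (34.2 and 25.9 CPM per kilobase against 20.6). It measured 87.2, 96.2 and 86.4 CPM in *FVB/N*, 85.6, 90.3 and 94.9 CPM in *P0-3.9GFPCre* and 83.5, 84.1 and 80.5 CPM in *Le-Cre*. The 3 *Le-Cre* pools were the lowest of the 9, at a log2FC of -0.12 ± 0.066 against *FVB/N* (edgeR, adjusted p = 0.715) and -0.13 ± 0.066 against *P0-3.9GFPCre* (adjusted p = 0.694). *Becn1* shared 36.8% of its 50-base stretches with other transcripts, chiefly those of *Cntd1*, but RSEM's posterior SD was at most 0.231% of its count. The catalytic subunit *Pik3c3* (VPS34) and its partners *Pik3r4* and *Atg14* stayed at means of 7.69, 3.52 and 2.87 TPM in *FVB/N*. *Atg9a*, the membrane protein that seeds autophagosomes, was at 35.3, 33.9 and 37.9 CPM in *FVB/N*, 32.9, 32.3 and 30.9 CPM in *P0-3.9GFPCre* and 41.0, 33.8 and 34.1 CPM in *Le-Cre*. Its *P0-3.9GFPCre* pools were the lowest 3, with a log2FC of -0.16 ± 0.087 against *FVB/N* (adjusted p = 0.783). *Wipi1* and *Wipi2*, whose products read the lipid mark, were nearly level across lines at 107 to 120 CPM and 123 to 143 CPM.

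The conjugation genes differed more in level than between lines. *Atg12*, the ubiquitin-like modifier, had the highest level at 31.5 ± 1.45 TPM in *FVB/N*, and its partner *Atg5* was at 5.03 ± 0.739 TPM. *Atg12* gave 70.5, 70.2 and 80.1 CPM in *FVB/N*, 71.5, 69.0 and 72.0 CPM in *P0-3.9GFPCre* and 79.4, 72.2 and 73.9 CPM in *Le-Cre*. Its *Le-Cre* pools lay above the *P0-3.9GFPCre* pools by a log2FC of 0.09 ± 0.07. *Atg5* gave 12.3, 11.2 and 9.58 CPM in *FVB/N*, 11.3, 12.4 and 12.4 CPM in *P0-3.9GFPCre* and 14, 14 and 10.3 CPM in *Le-Cre*. The groups overlapped although *Atg5* had the highest log2FC of the 37 genes in *Le-Cre* against *FVB/N*, 0.21 ± 0.137 with an interval of -0.09 to 0.51. *Atg3*, the E2-like enzyme for ATG8 proteins, was also among the most variable, at 11.7 to 16.7 CPM in *FVB/N*. *Atg16l1*, which directs the conjugate to the membrane, was among the steadiest at 23.9 to 27.2 CPM over all pools. The protease gene *Atg4b* lay at 22 to 26.7 CPM, and the E1-like *Atg7* at 13.2 to 16.6 CPM, with overlapping groups in every comparison.

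*Gabarap* dominated the ATG8 genes, whose products anchor cargo receptors and the fusion machinery. Its share of their summed TPM was 60.1, 61.7 and 54.7% in *FVB/N*, 59.8, 61.2 and 58.0% in *P0-3.9GFPCre* and 55.4, 63.0 and 57.1% in *Le-Cre*. The lines overlapped fully, with an exact two-sided permutation p of 1.0, 0.9 and 0.7 in the 3 comparisons, where 3 pools against 3 cannot go below 0.1. *Map1lc3b*, the source of the common autophagosome marker LC3B, held a mean of 16.8% over the 9 pools, *Gabarapl1* 11.7%, *Gabarapl2* 11.2% and *Map1lc3a* 1.33%. By expected counts, which do not correct for length, *Gabarap* still led at a mean of 43.5% and *Map1lc3b* followed at 24.0%.

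*Gabarap* was at 143, 150 and 143 CPM in *FVB/N*, 151, 155 and 146 CPM in *P0-3.9GFPCre* and 134, 155 and 141 CPM in *Le-Cre*, with overlapping groups. *Map1lc3b* was at 72.9, 79.7 and 88.0 CPM in *FVB/N*, 82.0, 82.5 and 83.1 CPM in *P0-3.9GFPCre* and 82.2, 73.6 and 85.3 CPM in *Le-Cre*. Its log2FC was 0.00 ± 0.08 in *Le-Cre* against *FVB/N*, with an interval of -0.17 to 0.18. *Gabarapl1* gave 63.0, 60.7 and 73.7 CPM in *FVB/N*, 66.0, 61.2 and 73.3 CPM in *P0-3.9GFPCre* and 77.2, 59.2 and 72.5 CPM in *Le-Cre*, and varied more within lines than between them. *Gabarapl2* gave 39.2, 34.8 and 46.6 CPM in *FVB/N*, 40.5, 33.6 and 35.3 CPM in *P0-3.9GFPCre* and 38.0, 35.1 and 39.1 CPM in *Le-Cre*. It shares 12.2% of its 50-base stretches, mainly with pseudogenes. *Map1lc3a* gave 3.78, 3.61 and 5.28 CPM in *FVB/N*, 3.58, 2.96 and 4.85 CPM in *P0-3.9GFPCre* and 3.17, 3.04 and 4.3 CPM in *Le-Cre*. Its log2FC of -0.27 ± 0.239 in *Le-Cre* against *FVB/N* had an interval of -0.80 to 0.25, so a 1.5-fold lower level could not be told from no difference at this depth.

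**Figure D3:**
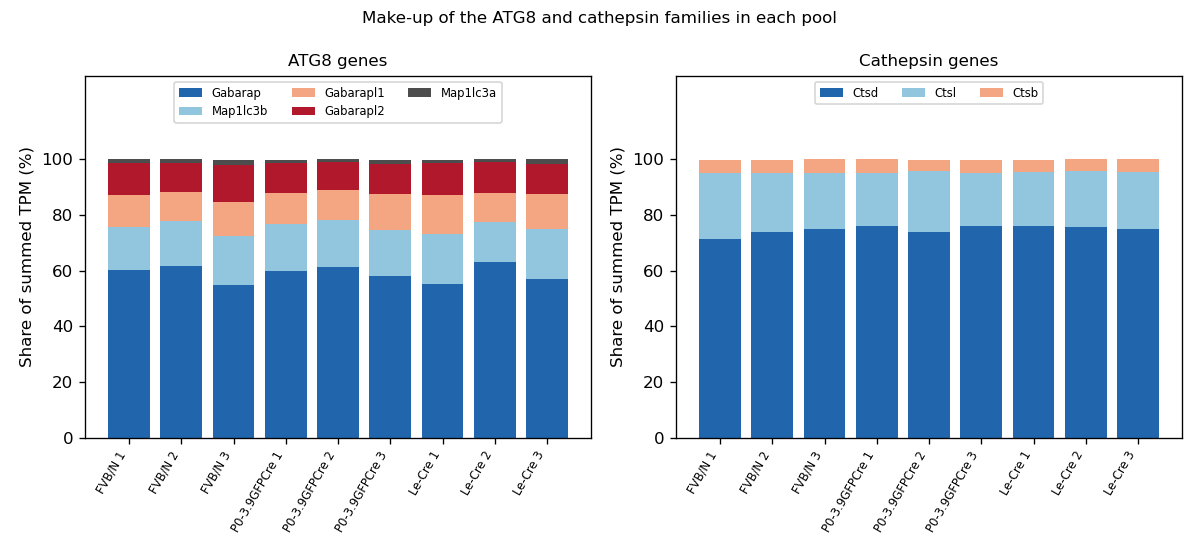
Stacked bars of the share of summed TPM (%) that each of 5 ATG8 genes (left) and 3 cathepsin genes (right) takes in each of the 9 pools. *Gabarap* holds 54.7 to 63.0% and *Ctsd* 71.5 to 76.1% in every pool, while the thin *Ctsb* segment is 4.73 to 5.02% in *FVB/N* and 4.05 to 4.41% in *Le-Cre*.

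Among the receptor genes, *Fundc1* had an unadjusted p under 0.05. FUNDC1 is a mitochondrial outer membrane protein that binds LC3 during mitophagy, the removal of mitochondria. It measured 18.2, 17.6 and 20 CPM in *FVB/N*, 16.4, 16.5 and 16.9 CPM in *P0-3.9GFPCre* and 17.1, 17.0 and 14.4 CPM in *Le-Cre*. All 6 transgenic pools were below the 3 *FVB/N* pools. The log2FC was -0.20 ± 0.091 in *Le-Cre* lenses (edgeR, unadjusted p = 0.0495, adjusted p = 0.629) and -0.16 ± 0.091 in *P0-3.9GFPCre* (adjusted p = 0.789). The unadjusted p stayed under 0.05 in only 4 of 18 alternative count fits and reached 0.236 with the Y-linked level as a covariate, where the log2FC was -0.16. It was also above 0.05 without *FVB/N* replicate 1 or 3, any 1 of the *P0-3.9GFPCre* pools or *Le-Cre* replicate 3. *Fundc1* lies on the X chromosome (X:17556564-17572325, minus strand, GRCm38), and the part of the Y-linked difference in its values was not tested beyond that fit. *Pink1*, the kinase that marks damaged mitochondria, was at 27.8, 28.8 and 22.4 CPM in *FVB/N*, 21.2, 23.6 and 23.3 CPM in *P0-3.9GFPCre* and 21.2, 22.9 and 26.0 CPM in *Le-Cre*, with overlapping groups. *Nbr1*, a ubiquitin-binding receptor, had the highest TPM of the receptors and is taken up with the length estimates. *Sqstm1*, which encodes p62, was at 61.5, 64.0 and 68.2 CPM in *FVB/N*, 70.4, 65.0 and 69.8 CPM in *P0-3.9GFPCre* and 72.9, 62.4 and 74.2 CPM in *Le-Cre*. Its log2FC was 0.11 ± 0.079 in *Le-Cre* against *FVB/N*, with an interval of -0.06 to 0.29. *Optn* (optineurin) stood at 57.8 to 58.8 CPM in *FVB/N* and 60.6 to 61.0 CPM in *P0-3.9GFPCre*, tight groups that did not overlap but differed by a log2FC of only 0.06 ± 0.076.

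The lysosomal genes were led by *Ctsd* (7:142375911-142388038, minus strand, GRCm38) in every pool, with 481, 497 and 496 CPM in *FVB/N*, 494, 484 and 459 CPM in *P0-3.9GFPCre* and 511, 493 and 519 CPM in *Le-Cre*. Its log2FC was 0.05 ± 0.055 in *Le-Cre* lenses and -0.04 ± 0.055 in *P0-3.9GFPCre* against *FVB/N*. These were the narrowest intervals of the 37 genes, -0.07 to 0.17 and -0.16 to 0.08. *Ctsb*, which encodes the cysteine protease cathepsin B, had the smallest p of the group in *Le-Cre* against *FVB/N* and lies at 14:63122462-63145923 on the plus strand (GRCm38). It measured 81.4, 85.3 and 88.9 CPM in *FVB/N*, 80.6, 72.8 and 75.3 CPM in *P0-3.9GFPCre* and 76.5, 66.9 and 79.6 CPM in *Le-Cre*. All 6 transgenic pools were below all 3 *FVB/N* pools. The log2FC was -0.20 ± 0.077 in *Le-Cre* lenses (edgeR, unadjusted p = 0.0263, adjusted p = 0.575) and -0.16 ± 0.077 in *P0-3.9GFPCre* (adjusted p = 0.741). Leaving out *FVB/N* replicate 2 or 3 or *Le-Cre* replicate 2 took the unadjusted p in *Le-Cre* above 0.05, and it stayed under 0.05 in 15 of 18 alternatives. With the Y-linked level as a covariate, the log2FC of *Ctsb* in *Le-Cre* was -0.30 (edgeR, unadjusted p = 0.0135). The smallest adjusted p of the 37 genes in that fit was 0.958. The mesenchyme markers moved the same way, and their part in the *Ctsb* values was not tested. *Ctsl* (cathepsin L) gave 167, 153 and 145 CPM in *FVB/N*, 135, 151 and 125 CPM in *P0-3.9GFPCre* and 141, 137 and 153 CPM in *Le-Cre*, with overlapping groups and a log2FC of -0.18 ± 0.083 in *P0-3.9GFPCre* against *FVB/N* (adjusted p = 0.722).

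Within the 3 cathepsins, the share of *Ctsb* in summed TPM was 4.73, 4.87 and 5.02% in *FVB/N*, 4.71, 4.28 and 4.75% in *P0-3.9GFPCre* and 4.38, 4.05 and 4.41% in *Le-Cre*. The *Le-Cre* pools lay below the *FVB/N* pools, at an exact two-sided permutation p of 0.1, the smallest these groups can give. By expected counts, the share of *Ctsd* was 65.9 to 68.0% in *FVB/N*, 68.4 to 69.7% in *P0-3.9GFPCre* and 69.1 to 70.7% in *Le-Cre*, so that both transgenic lines lay above *FVB/N* (exact p = 0.1 each). On TPM this separation was absent. There the share of *Ctsd* was 71.5 to 75.0% in *FVB/N*, 74.0 to 76.1% in *P0-3.9GFPCre* and 74.9 to 75.9% in *Le-Cre* (exact p = 0.2 each against *FVB/N*). *Lamp1*, encoding the most abundant protein of the lysosomal membrane, was at 221, 220 and 265 CPM in *FVB/N*, 243, 217 and 225 CPM in *P0-3.9GFPCre* and 264, 224 and 244 CPM in *Le-Cre*. *Lamp2*, whose isoform LAMP2A serves chaperone-mediated autophagy, ranged from 58.9 to 71.2 CPM over all pools. Neither separated the lines. For *Lamp1*, with its 4 CACGTG motifs, the interval in *Le-Cre* against *FVB/N* was -0.14 to 0.25. *Ctsd*, *Ctsl* and *Ctsb* share 32.4%, 26.3% and 12.1% of their 50-base stretches with other transcripts, but RSEM's posterior SD of their counts was at most 0.00025%, 0.000843% and 0.102%.

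The genes tied to cataract gave overlapping groups. FYCO1 links autophagosomes to kinesin for transport along microtubules. *Fyco1* measured 36.1, 43.1 and 33.6 CPM in *FVB/N*, 36.2, 37 and 38.8 CPM in *P0-3.9GFPCre* and 33.3, 39.6 and 37.8 CPM in *Le-Cre*, a log2FC of -0.03 ± 0.099 in *Le-Cre* lenses and -0.01 ± 0.099 in *P0-3.9GFPCre* against *FVB/N*. EPG5 tethers autophagosomes to lysosomes. *Epg5* measured 46.1, 46.8 and 50.3 CPM in *FVB/N*, 47.3, 51.3 and 46.1 CPM in *P0-3.9GFPCre* and 50.7, 49.9 and 48.4 CPM in *Le-Cre*. Its interval of -0.09 to 0.21 in *Le-Cre* against *FVB/N* left out changes of 1.25-fold.

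The control genes were as even. *Mtor*, the kinase of mTORC1, measured 104, 108 and 119 CPM in *FVB/N*, 107, 110 and 111 CPM in *P0-3.9GFPCre* and 114, 105 and 108 CPM in *Le-Cre*, a log2FC of -0.02 ± 0.065 and -0.01 ± 0.065 against *FVB/N* in *Le-Cre* and *P0-3.9GFPCre*. *Rptor*, its substrate-recruiting partner, was at 41.6 to 48.2 CPM over all pools. *Tfeb*, at 5.22, 4.09 and 4.5 CPM in *FVB/N*, 6.0, 3.63 and 5.12 CPM in *P0-3.9GFPCre* and 5.19, 4.91 and 4.61 CPM in *Le-Cre*, was counted in only 75 to 146 reads per pool. Its interval was correspondingly wide, -0.33 to 0.51 in *Le-Cre* against *FVB/N*.

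**Figure D4:**
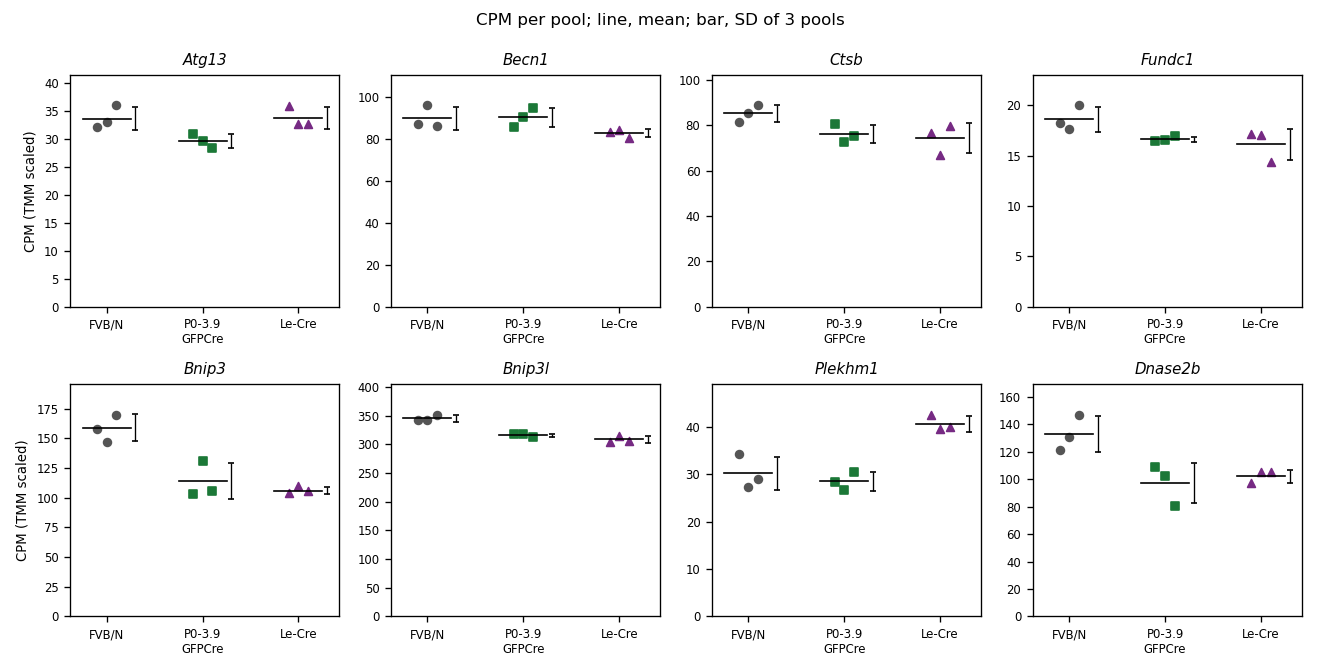
CPM of 4 of the 37 genes (*Atg13*, *Becn1*, *Ctsb*, *Fundc1*; top) and of 4 further pathway genes (*Bnip3*, *Bnip3l*, *Plekhm1*, *Dnase2b*; bottom) in each pool, with the mean (line) and SD (bar) of 3 pools per line and axes from 0. *Bnip3* is at 147 to 170 CPM in *FVB/N* and 103 to 131 CPM in the transgenic pools, while the upper genes shift by little.

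On the TPM scale a few of the genes appeared to differ where their reads did not. *Mtor* was at 23.1, 25.4 and 19.6 TPM in *FVB/N*, 26.4, 36.2 and 31.0 TPM in *P0-3.9GFPCre* and 26.1, 27.2 and 29.1 TPM in *Le-Cre*. All 6 transgenic pools were above *FVB/N*, and limma on log2(TPM + 1) gave a difference of 0.44 ± 0.128 in *P0-3.9GFPCre* against *FVB/N* (adjusted p = 0.561). The log2FC of its counts was -0.01. RSEM's effective length of *Mtor*, its mean over the isoforms weighted by their estimated share, ran from 3294 to 6150 bases between pools, and the log2 ratio of these lengths between the lines was -0.40. *Nbr1* behaved alike but with overlapping pools, at 227, 184 and 189 TPM in *FVB/N*, 199, 231 and 254 TPM in *P0-3.9GFPCre* and 204, 306 and 271 TPM in *Le-Cre*. Its reads gave 177, 163 and 165 CPM in *FVB/N*, 160, 159 and 153 CPM in *P0-3.9GFPCre* and 159, 167 and 166 CPM in *Le-Cre*. The log2 difference between *Le-Cre* and *FVB/N* was 0.37 on TPM and -0.04 on counts. The effective length of *Nbr1* was only 621 to 956 bases, while its 21 annotated transcripts in GENCODE M21 reach 4789 bases. Scaled by the longest transcript of each gene, *Nbr1* dropped from the third to the fifth place among the 37 genes in *FVB/N*, and *Ctsd*, *Gabarap* and *Lamp1* took the top 3 places. *Atg7* had the largest gap, 0.36 on TPM and -0.11 on counts in *P0-3.9GFPCre* against *FVB/N*. *Sqstm1* was at 37.4, 40.9 and 41.9 TPM in *FVB/N* and 50.4, 44.3 and 44.8 TPM in *Le-Cre*, without overlap. Its log2 difference was 0.21 ± 0.088 on TPM (limma, unadjusted p = 0.0406, adjusted p = 0.784) and 0.11 on counts. The log2 ratio of its effective lengths was only -0.07 in this comparison. Some separations on CPM were absent on TPM. *Fundc1* was at 19.0 to 26.3 TPM in *FVB/N* and 18.5 to 24.3 TPM in *Le-Cre*. *Becn1* was at 57.2 to 63.5 TPM in *FVB/N* and 51.4 to 57.6 TPM in *Le-Cre*. Its *Le-Cre* pools still lay below *P0-3.9GFPCre*, at 63.2 to 64.6 TPM (limma, difference -0.205 ± 0.071, unadjusted p = 0.0178, adjusted p = 0.575). *Atg13* was at 15.3 to 15.4 TPM in *FVB/N* and 11.9 to 15.8 TPM in *P0-3.9GFPCre*. *Ctsb* was at 18.3 to 19.6 TPM in *FVB/N* and 16.9 to 19.4 TPM in *P0-3.9GFPCre*, while *Le-Cre* stayed lower at 16.2 to 17.4 TPM.

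The sum over the genes also depended on the scale. The 37 genes together took 0.154, 0.156 and 0.150% of all TPM in *FVB/N*, 0.163, 0.161 and 0.157% in *P0-3.9GFPCre* and 0.156, 0.171 and 0.159% in *Le-Cre*. The exact two-sided permutation p was 0.1 for each transgenic line against *FVB/N*, the smallest possible. Without *Nbr1* the means were 0.133, 0.138 and 0.136% with exact p of 0.3 and 0.5 for *P0-3.9GFPCre* and *Le-Cre*. By expected counts they were 0.264, 0.267 and 0.27% with exact p of 0.9 and 0.2. Without crystallin genes the share was 0.366 to 0.383% in *FVB/N*, 0.375 to 0.385% in *P0-3.9GFPCre* and 0.389 to 0.402% in *Le-Cre*. There *Le-Cre* lay above both other lines (exact p = 0.1 each), and *P0-3.9GFPCre* overlapped *FVB/N* (exact p = 0.3). That share still included *Nbr1*, and the share without both *Nbr1* and the crystallin genes was not computed.

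**Figure D5:**
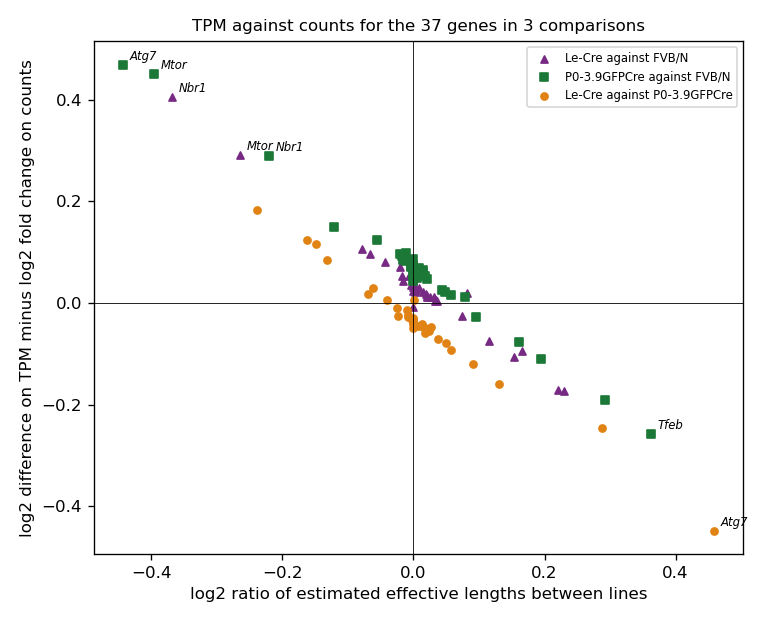
Difference between the log2 change on TPM and the log2FC on counts (vertical axis) against the log2 ratio of RSEM's effective lengths between lines (horizontal axis), for the 37 genes in 3 comparisons. Points fall along a descending line, and *Atg7*, *Mtor* and *Nbr1* lie at its upper end with gaps of 0.47, 0.45 and 0.41.

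The wider pathway was read from 6 lists of further autophagy and lysosome genes. Of 158 listed genes, 152 were tested and 0 passed the cutoff in any comparison in the main edgeR fit. DESeq2 without a prior called *Hyal1* and *Ddit4l* in *Le-Cre* against *FVB/N*. The authors, who used DESeq2 at this cutoff, also listed both as differentially regulated in *Le-Cre* lenses. In edgeR, an unadjusted p under 0.05 was reached by 6 higher and 11 lower genes in *Le-Cre* against *FVB/N* (11.2% of those tested, 7.94% of all genes). The counts were 7 higher and 12 lower in *P0-3.9GFPCre* against *FVB/N* (12.5%, beside 6.81% of all genes), and 14 higher and 7 lower in *Le-Cre* against *P0-3.9GFPCre* (13.8%, beside 7.88%).

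In edgeR, the gene nearest the cutoff was *Bnip3*, which encodes a mitophagy receptor induced by hypoxia. *Bnip3* measured 158, 147 and 170 CPM in *FVB/N*, 103, 131 and 106 CPM in *P0-3.9GFPCre* and 104, 110 and 106 CPM in *Le-Cre*, so that all 6 transgenic pools were below *FVB/N*. It gave a log2FC of -0.57 ± 0.091 in *Le-Cre* lenses (edgeR, adjusted p = 0.0592) and -0.48 ± 0.091 in *P0-3.9GFPCre* (adjusted p = 0.39). DESeq2 without a prior gave adjusted p of 1.26e-06 and 0.000624, but the fold stayed under 1.5. With the Y-linked level as a covariate, the log2FC was -0.48 in *Le-Cre*. Its relative *Bnip3l*, needed for mitochondrial clearance in maturing lens fibres and red cells, was at 343, 342 and 352 CPM in *FVB/N*, 318, 318 and 313 CPM in *P0-3.9GFPCre* and 305, 315 and 306 CPM in *Le-Cre*. These pools did not overlap either, with a log2FC of -0.16 ± 0.05 in *Le-Cre* lenses (adjusted p = 0.424) and -0.13 ± 0.05 in *P0-3.9GFPCre* (adjusted p = 0.662). Of the 13 tested genes in this receptor list, 3 in *Le-Cre* and 2 in *P0-3.9GFPCre* had an unadjusted p under 0.05 against *FVB/N*, and all were lower. Of all genes, 7.94% (4.35% lower) and 6.81% (3.41% lower) did so. The other was *Calcoco1*, at -0.43 ± 0.163 in *Le-Cre*.

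*Plekhm1*, an adaptor for the fusion of autophagosomes with lysosomes, differed in the other direction and in *Le-Cre*. It measured 34.2, 27.4 and 29.0 CPM in *FVB/N*, 28.3, 26.7 and 30.5 CPM in *P0-3.9GFPCre* and 42.6, 39.6 and 39.9 CPM in *Le-Cre*. Its log2FC in *Le-Cre* was 0.43 ± 0.091 against *FVB/N* (edgeR, adjusted p = 0.195) and 0.51 ± 0.091 against *P0-3.9GFPCre* (adjusted p = 0.292). DESeq2 without a prior gave adjusted p of 0.0124 and 0.00165 for these, below 1.5-fold. The log2FC was 0.34 and 0.47 with the Y-linked level as a covariate (edgeR, adjusted p = 0.958 and 0.631). Of 25 tested genes of the autophagy machinery list, *Plekhm1* was the only one with an unadjusted p under 0.05 in *Le-Cre* against *FVB/N* (7.94% of all genes).

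Among lysosomal hydrolases and cofactors, 5 of 44 tested genes had an unadjusted p under 0.05 in *Le-Cre* against *FVB/N*, all lower (7.94% of all genes, 4.35% lower). In *P0-3.9GFPCre* against *FVB/N* the list went both ways, with 3 higher and 4 lower (6.81% of all genes). *Dnase2b*, the lysosomal nuclease that degrades DNA in lens fibre cells, was at 121, 131 and 147 CPM in *FVB/N*, 109, 102 and 80.7 CPM in *P0-3.9GFPCre* and 97.3, 105 and 105 CPM in *Le-Cre*. All 6 transgenic pools were below *FVB/N*, with a log2FC of -0.37 ± 0.107 in *Le-Cre* lenses (adjusted p = 0.356) and -0.45 ± 0.107 in *P0-3.9GFPCre* (adjusted p = 0.59). With the Y-linked level as a covariate, the log2FC in *Le-Cre* was -0.21 (edgeR, unadjusted p = 0.15). In *P0-3.9GFPCre* it was -0.37 in the same fit (unadjusted p = 0.00635, adjusted p = 0.804). DESeq2 without a prior gave adjusted p of 0.06 in *Le-Cre* and 0.0189 in *P0-3.9GFPCre*, below 1.5-fold. *Hyal1*, a hyaluronidase, was at 15.4, 23.6 and 20.9 CPM in *FVB/N*, 8.8, 16.9 and 8.08 CPM in *P0-3.9GFPCre* and 8.82, 8.43 and 7.78 CPM in *Le-Cre*. Its log2FC of -1.25 ± 0.251 in *Le-Cre* missed the cutoff in edgeR (adjusted p = 0.169) and passed it in DESeq2 without a prior (adjusted p = 9.53e-05) and in edgeR without *P0-3.9GFPCre* replicate 2.

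The lysosomal membrane list gave 1 gene of 17 with an unadjusted p under 0.05 in *Le-Cre* against *FVB/N* (7.94% of all genes), *Ostm1*, at 0.23 ± 0.091. The proton pump list, whose products acidify the lysosome, gave 1 of 17 in the same comparison, *Atp6v1b2*, at -0.19 ± 0.068. In *P0-3.9GFPCre* against *FVB/N*, this pump list gave 2 higher and 1 lower gene at an unadjusted p under 0.05 (6.81% of all genes). The pore subunit gene *Atp6v0c* was at 125, 133 and 128 CPM in *FVB/N*, 139, 158 and 151 CPM in *P0-3.9GFPCre* and 129, 135 and 133 CPM in *Le-Cre*. Its log2FC was 0.22 ± 0.061 in *P0-3.9GFPCre* against *FVB/N* (edgeR, adjusted p = 0.59). Among 36 genes of mTORC1, AMPK and TFEB-family control, 4 were higher and 2 lower at an unadjusted p under 0.05 in *Le-Cre* against *FVB/N* (7.94% of all genes). The counts were 1 higher and 4 lower in *P0-3.9GFPCre* against *FVB/N* (6.81%), and 7 higher and 2 lower in *Le-Cre* against *P0-3.9GFPCre* (7.88%). *Mitf*, a relative of *Tfeb*, was at 26.6, 27.7 and 26.4 CPM in *FVB/N*, 21.6, 22.5 and 20.9 CPM in *P0-3.9GFPCre* and 21.2, 26.1 and 21.3 CPM in *Le-Cre*. It was lower in all 6 transgenic pools, by -0.31 ± 0.09 in *P0-3.9GFPCre* (edgeR, adjusted p = 0.59) and -0.23 ± 0.09 in *Le-Cre* (adjusted p = 0.565). *Sesn2*, a stress-induced inhibitor of mTORC1, was higher by 0.48 ± 0.144 in *Le-Cre* against *FVB/N* (adjusted p = 0.386). With the Y-linked level as a covariate, *Mitf* and *Sesn2* were at -0.07 and 0.29 in *Le-Cre*. *Ddit4l*, another such inhibitor, was barely expressed, at 0.567, 0.387 and 0.0409 CPM in *FVB/N*, 0.905, 0.824 and 1.08 CPM in *P0-3.9GFPCre* and 1.99, 2.15 and 2.04 CPM in *Le-Cre*. The groups did not overlap (edgeR, adjusted p = 0.211 in *Le-Cre* against *FVB/N*), and no fold is given because an *FVB/N* pool lay near 1 read.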

How the data were processed

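Whole lenses of newborns were profiled by RNA-Seq, in 3 pools per line. The authors purified polyadenylated RNA, sequenced single-end reads, trimmed them with Trimmomatic 0.36, aligned them by GSNAP to GRCm38 and estimated gene levels by RSEM 1.3.0. The deposited expected counts are RSEM's estimated counts without normalization, and the deposited TPM values are scaled by RSEM for estimated length and depth. The strand setting and the annotation were not given in the sources used here. All 37 genes matched GENCODE M21, the source of the coordinates.

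Expected counts were rounded and tested in R 4.3.3 with edgeR 4.0.16 (TMM, filterByExpr, all 9 pools in 1 quasi-likelihood fit with a term for each line), with Benjamini-Hochberg adjustment over 15557 genes. The cutoff was 1.5-fold with an adjusted p no higher than 0.05. The SE was taken as the size of the log2 fold change over the root of its F. The 95% intervals use the total degrees of freedom of the fit, residual plus prior, which were 11 for each of the 37 genes. DESeq2 1.42.0 and limma 3.58.1 on log2(TPM + 1), the latter chosen after seeing the data, were alternatives. The fit was tested on simulated data. RSEM's posterior SD was at most 1.68% of the count of each of the 37 genes.

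Groups and replicate numbers came from the sample titles. The genes, the lists and the rule for genes given in every pool (the highest TPM and the largest fold change in each role, the ATG8 and cathepsin genes, *Fyco1*, *Epg5*, and any with an unadjusted p under 0.05, plus up to 3 per list) were chosen with earlier results of these data known. Of the listed genes, 3 were not matched in the tables. No 2 pools of a line agreed within sampling noise.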

Additional observations from a re-analysis of the deposited data

How the results depend on the processing

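The count of the 37 genes past the cutoff was 0 under every alternative in all 3 comparisons, and the smallest adjusted p of any of them was 0.489. With an unadjusted p under 0.05, the 2 genes in *Le-Cre* against *FVB/N* became 1 with RLE size factors, no filter, a mean of at least 10 counts, DESeq2 with and without a prior, and only the pools of the lines compared. The 1 gene in *P0-3.9GFPCre* against *FVB/N* became 3 without a filter and 2 with only the pools compared. With DESeq2 and with the Y-linked covariate the count stayed 1, but the gene was not *Atg13*. Leaving out each pool in turn gave 1 to 3, 0 to 2 and 0 to 2 genes in *Le-Cre* against *FVB/N*, *P0-3.9GFPCre* against *FVB/N* and *Le-Cre* against *P0-3.9GFPCre*, and medians of the 37 log2 fold changes of -0.023 to 0.019, -0.052 to -0.02 and 0.022 to 0.041. With the Y-linked level as a covariate the medians were -0.023 in the first and 0.003 in the third of these comparisons, and limma on log2(TPM + 1) gave 0.012 in the second and 0.01 in the third. The mean share of TPM over the 9 pools, 0.159%, was 0.381% without crystallin genes, 0.136% without *Nbr1* and 0.267% by expected counts. The cause of these shifts was not tested. *Hyal1* passed the cutoff in *Le-Cre* against *FVB/N* in 5 alternatives and *Ddit4l* in 2. Over all genes, the calls in *Le-Cre* against *FVB/N* went from 10 to 131 without a filter, 54 with DESeq2 without a prior, 5 with a mean of at least 10 counts, 2 with the replicate block and 0 with the Y-linked covariate. They were 0 without any 1 of the *Le-Cre* pools or *FVB/N* replicate 2, and 1 without *FVB/N* replicate 1 or 3.

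Replicate numbers occur in all lines, but the labels do not say that a number marks a shared batch. Deviations of same-numbered pools correlated at a mean of 0.03 over 9 pairs (-0.104 to 0.12). Those of other pools did so at -0.015 over 18 pairs (-0.171 to 0.116). Correlations this weak, with overlapping ranges, cannot decide whether the numbers pair the pools. With the replicate block, 0 of the 37 genes passed the cutoff in any comparison and 1 had an unadjusted p under 0.05 in each. The main limits are 3 pools per line, a Y-linked level that differs between *Le-Cre* and *FVB/N*, the low counts of *Map1lc3a*, *Tfeb* and *Atg14*, and length estimates that move TPM without moving counts.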

Other observations

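The autophagy and lysosome genes also varied little within a line. The median within-line SD of log2 CPM was 0.097 over the 37 genes and 0.182 over all tested genes, or 0.127 over the 10157 genes in the same range of CPM. *Ctsd* (0.041), *Atg16l1* (0.044) and *Nbr1* (0.048) were the steadiest, and *Map1lc3a* (0.305), *Tfeb* (0.237) and *Atg3* (0.198) the most variable. These are descriptions across genes, which are not independent replicates.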
